A study of Mus musculus with 8 samples.

Results

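The immediate early genes described here are Fos, Fosb, Jun, Junb, Egr1, Nr4a1, Ier2, Ier3, Dusp1 and Zfp36, a list of 10 genes picked by name. All 10 were present among the 13725 genes of the deposited table, and all 10 had a mean log2 CPM (CPM, counts scaled to library size, as a base 2 logarithm) above 0, the filter on low values for testing, which kept 12231 genes. The RNA came from pancreatic islets of female NOD mice aged 10 weeks, a strain that develops autoimmune diabetes. There were 4 libraries from mice given PAHSA (palmitic acid hydroxy stearic acids, a class of lipids, spelled PASHA in the sample labels), and 4 from mice given vehicle. Islets of 2 mice were pooled for a set according to the protocol, while the design text counts 4 mice a group, so p-values measure the spread between libraries, whichever unit a library is. The title of the study places the comparison in the context of beta cell senescence and metabolic stress. Dose, route and duration of treatment are absent from the labels used here.

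Immediate early genes are transcribed within minutes of a stimulus, without new protein synthesis, when kinases of the ERK, JNK and p38 pathways or calcium and cAMP signals act on transcription factors that already sit at their promoters, chiefly serum response factor with its ternary complex partners and CREB. Many of the products are transcription factors, and others shut the response down, as phosphatases of the MAP kinases or as proteins that destabilise messages carrying AU-rich elements. In islets they respond to glucose, incretins and cytokines, and they are also known to be induced by tissue dissociation. In bulk RNA, fewer cells of a type and less RNA per cell cannot be told apart.

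Recovered library sizes ranged from 35356278 to 39359123 estimated counts in PAHSA and from 34461742 to 45236238 in vehicle. Islet hormone genes were abundant in all 8 libraries, with Ins2 at 16.32 to 16.66 log2 CPM in PAHSA and 16.22 to 16.62 in vehicle, and Gcg at 16.01 to 16.29 in PAHSA and 15.88 to 16.07 in vehicle. The exocrine content varied widely between libraries. The 21 acinar markers summed to 516 to 17953 CPM in PAHSA and 11963 to 48316 CPM in vehicle, the lowest in PAHSA replicate 4 and the highest in vehicle replicate 4. Differences are given as PAHSA minus vehicle in log2 CPM, from limma, and for a weakly expressed gene a library at the lowest value of its column weighs heavily on this scale.

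In PAHSA islets Zfp36, Ier3 and Junb were lower than in vehicle islets by -0.55, -0.88 and -0.34 on the log2 scale, while Fos, Egr1 and Dusp1 were at -0.01, -0.06 and -0.05 and Jun at 0.10. None of the 10 genes passed an adjusted p of 0.05 in limma, where they ran from 0.671 to 0.997. Over all genes 0 of 12231 passed (0%), and 894 had an unadjusted p under 0.05. At that unadjusted level 3 of the 10 members were lower, against 4.29% of all tested genes, and 0 of 10 were higher, against 3.02%. The members were chosen with earlier results of these data known, so no test was made over the list. In direction alone 8 of 10 members were lower, with a median change of -0.11, against 50.9% lower and a median of -0.01 over all tested genes. Without vehicle replicate 1 or 3, or without PAHSA replicate 1, 6 of 10 were lower and Junb no longer had an unadjusted p under 0.05.

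**Figure D1:**
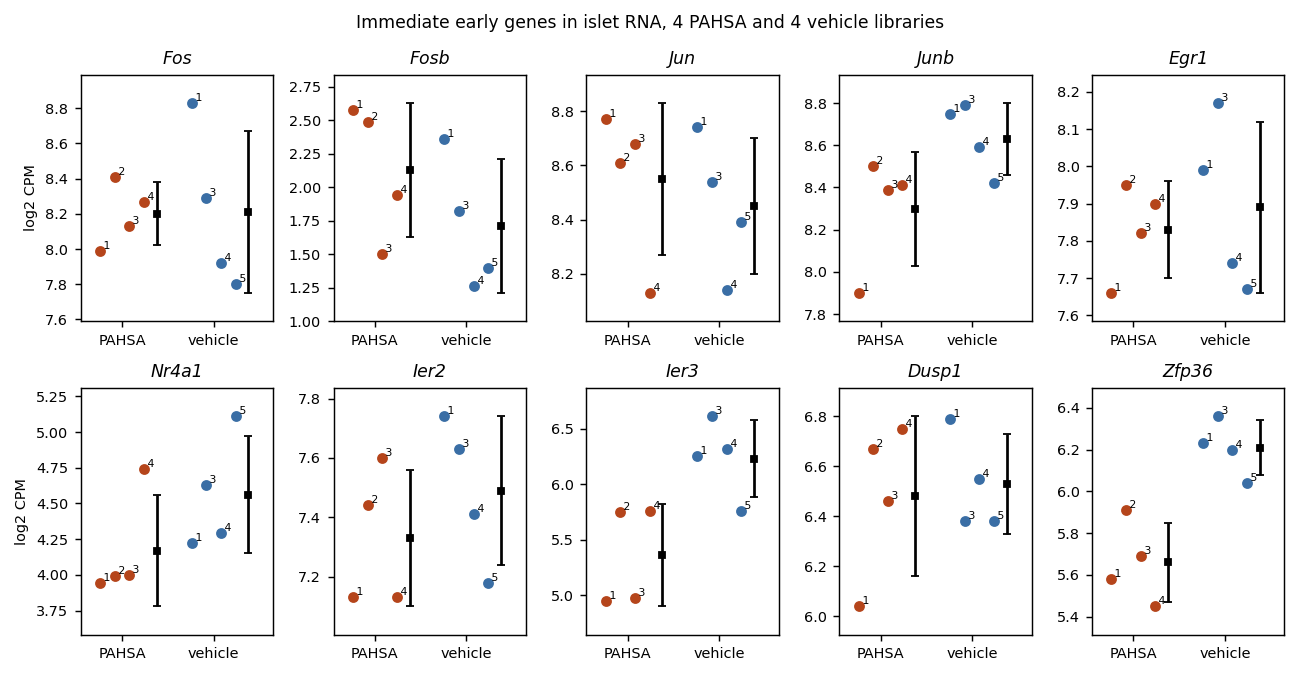
Log2 CPM (vertical axis, scaled for each gene) of the 10 immediate early genes in 4 PAHSA (left, rust) and 4 vehicle libraries (right, blue), with the replicate number beside each point and the mean with SD as a black square and bar. The groups are apart for Zfp36, touch for Ier3 and overlap for the other 8 genes.

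Zfp36 encodes tristetraprolin, which binds AU-rich elements in messages of cytokines and of other early genes and recruits the deadenylation machinery. It is an early gene on chromosome 7 (ENSMUSG00000044786, 28376784 to 28380253, minus strand, GRCm38). Zfp36 had levels of 5.58, 5.91, 5.69 and 5.45 in PAHSA libraries 1, 2, 3 and 4, against 6.23, 6.36, 6.20 and 6.04 log2 CPM in vehicle libraries 1, 3, 4 and 5. Every PAHSA library lay below every vehicle library, with a gap of 0.127 between the nearest pair. Such a separation with PAHSA below was found for 1.95% of tested genes, and with PAHSA above for 2.06%. The group means were 5.66 ± 0.19 in PAHSA and 6.21 ± 0.13 in vehicle (SD, n = 4 each), so PAHSA was at 0.68-fold the vehicle level. The log2 difference of -0.55 had an SE of 0.14 and a 95% confidence interval from -0.86 to -0.24, with an unadjusted p of 0.00256 (limma), the 39th smallest of 12231, and an adjusted p of 0.671. It lay between -0.63 and -0.48 when any one library was left out.

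Ier3 encodes a short-lived protein that is induced by NF-kB and growth factors and modulates cell survival. It lies on chromosome 17 (ENSMUSG00000003541, 35821684 to 35822923, plus strand). Ier3 had levels of 4.95, 5.75, 4.97 and 5.76 in PAHSA libraries 1, 2, 3 and 4, against 6.25, 6.61, 6.32 and 5.76 log2 CPM in vehicle libraries 1, 3, 4 and 5. PAHSA replicates 1 and 3 were far below all vehicle libraries, whereas PAHSA replicate 4 and vehicle replicate 5 had the same value to 2 decimals, so the separation of the groups is nominal. The means were 5.36 ± 0.46 in PAHSA and 6.23 ± 0.35 in vehicle (SD, n = 4 each), which puts PAHSA at 0.54-fold the vehicle level. The difference of -0.88 (SE 0.24, 95% confidence interval -1.42 to -0.34) had an unadjusted p of 0.00444 (limma), the 67th smallest, and an adjusted p of 0.671. Leaving out single libraries gave -1.03 to -0.74.

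Junb encodes a Jun family subunit of AP-1, the dimeric factor of Jun and Fos proteins, that can restrain c-Jun. It lies on chromosome 8 (ENSMUSG00000052837, 84974484 to 84978718, minus strand). Junb had levels of 7.90, 8.50, 8.39 and 8.41 in PAHSA libraries 1, 2, 3 and 4, against 8.75, 8.79, 8.59 and 8.42 log2 CPM in vehicle libraries 1, 3, 4 and 5. The groups overlapped only through PAHSA replicate 2, which lay above vehicle replicate 5, and PAHSA replicate 1 was the lowest of the 8. The difference was -0.34 (SE 0.14, 95% confidence interval -0.64 to -0.03), with an unadjusted p of 0.0356 and an adjusted p of 0.671 in limma. Without PAHSA replicate 1 it was -0.20.

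The other AP-1 members did not reach an unadjusted p of 0.05. Fos encodes c-Fos, the partner of Jun proteins (ENSMUSG00000021250, chromosome 12, 85473890 to 85477273, plus strand). Fos had levels of 7.99, 8.41, 8.13 and 8.27 in PAHSA libraries 1, 2, 3 and 4, against 8.83, 8.29, 7.92 and 7.80 log2 CPM in vehicle libraries 1, 3, 4 and 5. The PAHSA libraries lay inside the vehicle range, and the SD was 0.18 in PAHSA and 0.46 in vehicle. The difference of -0.01 (SE 0.20, 95% confidence interval -0.45 to 0.44) had no stable sign, being 0.20 without vehicle replicate 1, -0.14 without vehicle replicate 5 and 0.05 under quantile normalization. Jun, which encodes c-Jun (ENSMUSG00000052684, chromosome 4, 95049034 to 95052222, minus strand), had levels of 8.77, 8.61, 8.68 and 8.13 in PAHSA libraries 1, 2, 3 and 4, against 8.74, 8.54, 8.14 and 8.39 log2 CPM in vehicle libraries 1, 3, 4 and 5. The groups overlapped, with PAHSA replicate 4 as low as vehicle replicate 4, and the difference was 0.10 (SE 0.16, 95% confidence interval -0.26 to 0.45; -0.01 without vehicle replicate 4).

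Fosb, a Fos relative known for its long-lived splice form in neurons (ENSMUSG00000003545, chromosome 7, 19302696 to 19310051, minus strand), was the weakest of the members and the one with the largest positive difference. It had levels of 2.58, 2.49, 1.50 and 1.94 in PAHSA libraries 1, 2, 3 and 4, against 2.36, 1.82, 1.26 and 1.40 log2 CPM in vehicle libraries 1, 3, 4 and 5. The groups overlapped, and the difference of 0.42 had an SE of 0.46 and a 95% confidence interval from -0.60 to 1.44. It was 0.26 without vehicle replicate 4 and 0.63 without vehicle replicate 1. A difference of that size was not detectable for Fosb.

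Egr1 encodes a zinc finger factor that is raised by glucose in beta cells (ENSMUSG00000038418, chromosome 18, 34859823 to 34864984, plus strand). It had levels of 7.66, 7.95, 7.82 and 7.90 in PAHSA libraries 1, 2, 3 and 4, against 7.99, 8.17, 7.74 and 7.67 log2 CPM in vehicle libraries 1, 3, 4 and 5, and the PAHSA libraries all but replicate 1 lay within the vehicle range. The difference was -0.06 (SE 0.13, 95% confidence interval -0.34 to 0.21), and 0.03 without vehicle replicate 3. Nr4a1, an orphan nuclear receptor induced by cAMP and calcium (ENSMUSG00000023034, chromosome 15, 101254269 to 101274795, plus strand), had levels of 3.94, 3.99, 4.00 and 4.74 in PAHSA libraries 1, 2, 3 and 4, against 4.22, 4.63, 4.29 and 5.11 log2 CPM in vehicle libraries 1, 3, 4 and 5. PAHSA replicates 1, 2 and 3 lay close together below all vehicle libraries, and PAHSA replicate 4 lay within the vehicle range. The difference was -0.39 (SE 0.27, 95% confidence interval -0.99 to 0.21, unadjusted p = 0.176 in limma), and it was -0.59 without PAHSA replicate 4 (unadjusted p = 0.0489 in limma) and -0.21 without vehicle replicate 5.

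Dusp1 encodes a nuclear phosphatase that inactivates p38, JNK and ERK (ENSMUSG00000024190, chromosome 17, 26505590 to 26562128, minus strand). It had levels of 6.04, 6.67, 6.46 and 6.75 in PAHSA libraries 1, 2, 3 and 4, against 6.79, 6.38, 6.55 and 6.38 log2 CPM in vehicle libraries 1, 3, 4 and 5. Only PAHSA replicate 1 lay outside the vehicle range, and the difference was -0.05 (SE 0.17, 95% confidence interval -0.42 to 0.33; 0.10 without PAHSA replicate 1, 0.04 without vehicle replicate 1). Ier2, a nuclear protein of the early response (ENSMUSG00000053560, chromosome 8, 84661331 to 84662852, minus strand), had levels of 7.13, 7.44, 7.60 and 7.13 in PAHSA libraries 1, 2, 3 and 4, against 7.74, 7.63, 7.41 and 7.18 log2 CPM in vehicle libraries 1, 3, 4 and 5. PAHSA replicates 1 and 4 lay just below the vehicle range, and the difference was -0.16 (SE 0.15, 95% confidence interval -0.50 to 0.17; -0.08 without vehicle replicate 1, -0.10 without PAHSA replicate 1 or 4 and -0.27 without vehicle replicate 5). Of the feedback members, then, Zfp36 was at -0.55 and Dusp1 at -0.05, and whether these differ from each other was not tested.

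**Figure D2:**
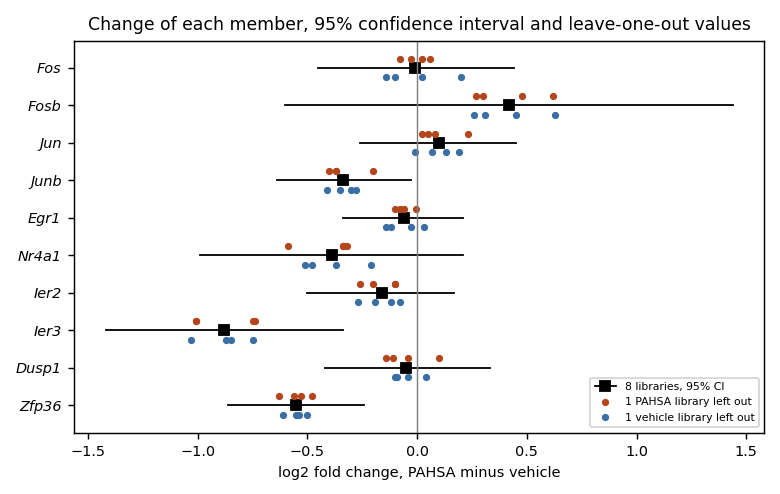
Log2 fold change of PAHSA minus vehicle (horizontal axis) for each of the 10 genes, with the estimate from 8 libraries (black square), its 95% confidence interval (line) and the estimates with 1 PAHSA library (rust) or 1 vehicle library (blue) left out. The intervals of Zfp36, Ier3 and Junb lie below 0, and those of the other 7 genes cross it.

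The libraries differed in their overall early gene level within both groups. The mean over the 10 members was 6.25, 6.57, 6.32 and 6.45 in PAHSA libraries 1, 2, 3 and 4, against 6.79, 6.72, 6.44 and 6.41 log2 CPM in vehicle libraries 1, 3, 4 and 5. Vehicle replicates 1 and 3 stood highest, being the top of all 8 libraries for 3 and 4 of the members, and vehicle replicates 4 and 5 lay within the PAHSA range. PAHSA replicate 1 was the lowest of all 8 libraries for 5 members, Junb, Egr1, Ier3, Dusp1 and Nr4a1, yet the highest for Fosb and Jun. The members therefore did not move up and down as one. Of the 45 pairs of members 33 had a positive Pearson r over the 8 libraries, the median r was 0.36, and 6 pairs had an exact permutation p under 0.05 before adjustment and 0 after Benjamini-Hochberg adjustment over the 45 pairs.

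The closest pair was Junb with Ier3, at a Pearson r of 0.85 (exact permutation p = 0.00246, adjusted 0.11) and a Spearman rho of 0.90 (exact permutation p = 0.00456, adjusted 0.103). Without PAHSA replicate 1 and vehicle replicate 3, the libraries farthest from the Junb median, r was 0.75. Ier3 with Zfp36 had an r of 0.81 (exact permutation p = 0.0162, adjusted 0.244) and a rho of 0.83 (exact permutation p = 0.0154, adjusted 0.173), and an r of 0.67 without the same libraries. These 3 genes are also those that were lower in PAHSA, so the difference between the groups enters these values.

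**Figure D3:**
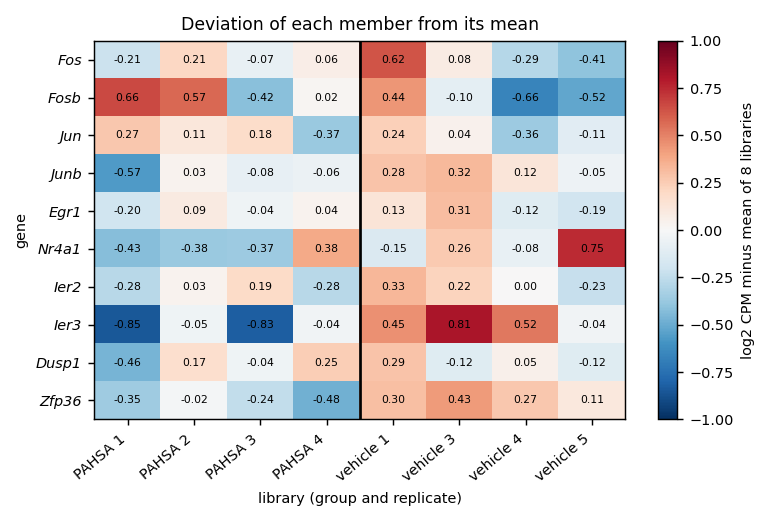
Deviation of each member's log2 CPM from its mean over the 8 libraries, with genes in rows, 4 PAHSA libraries left and 4 vehicle libraries right of the black line, blue for below and red for above the mean. Zfp36 is below its mean in all PAHSA libraries and above it in all vehicle libraries, while Fos and Fosb vary as much within a group as between the groups.

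Among 12221 other tested genes, those most like the mean of the members over the 8 libraries by Pearson r were Etnk1, an ethanolamine kinase, with 0.96, Fga, the fibrinogen alpha chain, with 0.94, the predicted gene Gm5640 with 0.93 and Vav3, a guanine nucleotide exchange factor, with 0.93. Spearman rho was 0.90 for Etnk1, 0.88 for Fga and 0.90 for Vav3, and Gm5640 ordered the 8 libraries exactly as the members' mean did. The exact permutation p of r was 0.000422, 0.00057, 0.000149 and 0.00109, and each had an adjusted p of 0.856. Without vehicle replicates 1 and 3, which lay farthest from the median of the members' mean, r was 0.90, 0.97, 0.94 and 0.78. The adjusted exact permutation p of rho was 0.89, 0.89, 0.202 and 0.89. Etnk1, Fga, Gm5640 and Vav3 were themselves lower in PAHSA, at -0.31, -0.92, -0.60 and -1.37, so the difference between the groups enters these correlations. Etnk1 had levels of 6.71, 7.23, 6.91 and 6.97 in PAHSA libraries 1, 2, 3 and 4, against 7.48, 7.50, 6.97 and 7.12 log2 CPM in vehicle libraries 1, 3, 4 and 5, high in vehicle replicates 1 and 3 like the members.

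Per length, Junb and Fos had the highest levels and Fosb the lowest. CPM per kilobase of 1 representative transcript averaged 199 ± 35.1 for Junb, 143 ± 34.7 for Fos, 115 ± 19.3 for Jun and 113 ± 18.7 for Ier2 (SD, n = 8 libraries), and the ranges of neighbours in this order overlapped. There followed Ier3 at 52.8 ± 20.6, Egr1 at 52.3 ± 6.56 and Dusp1 at 46.1 ± 7.51 CPM per kilobase, again with overlapping ranges, and all below the lowest Ier2 library. Zfp36 at 22.4 ± 5.03, Nr4a1 at 8.39 ± 2.64 and Fosb at 1.06 ± 0.371 CPM per kilobase were each apart from their neighbours in every library. In this order Ier3 averaged 37.7 ± 11.7 in PAHSA and 68.0 ± 15.6 in vehicle (SD, n = 4), and Junb 176 ± 30.3 in PAHSA and 221 ± 25.2 in vehicle.

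The promoters of the lower members and of Fos and Dusp1, whose differences were near 0, are printed to show which known elements of early promoters they hold. The sequences are RefSeq promoters on GRCm38.p6, from 250 bases before to 50 bases after the annotated start, read 5′ to 3′ on the gene's strand. Capitals mark any match, on either strand, to the CRE TGACGTCA, the AP-1 site TGANTCA, the GC box GGGCGG, the EGR site GCGNGGGCG, the TATA box TATAAA or the CArG box, which serum response factor binds. GC box and EGR matches can overlap.
Zfp36 promoter, chr7:28379179-28379478, minus strand: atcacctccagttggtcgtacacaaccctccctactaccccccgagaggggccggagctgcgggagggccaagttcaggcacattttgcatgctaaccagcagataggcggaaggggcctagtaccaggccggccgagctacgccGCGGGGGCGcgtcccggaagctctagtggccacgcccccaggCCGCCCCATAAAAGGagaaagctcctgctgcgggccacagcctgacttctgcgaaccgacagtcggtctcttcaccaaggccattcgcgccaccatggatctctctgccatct
Ier3 promoter, chr17:35821463-35821762, plus strand: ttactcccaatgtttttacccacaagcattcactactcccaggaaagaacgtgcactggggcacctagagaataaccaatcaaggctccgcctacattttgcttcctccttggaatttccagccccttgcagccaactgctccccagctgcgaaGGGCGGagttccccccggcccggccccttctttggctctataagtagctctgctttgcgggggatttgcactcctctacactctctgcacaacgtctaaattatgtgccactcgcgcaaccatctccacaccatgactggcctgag
Junb promoter, chr8:84978699-84978998, minus strand: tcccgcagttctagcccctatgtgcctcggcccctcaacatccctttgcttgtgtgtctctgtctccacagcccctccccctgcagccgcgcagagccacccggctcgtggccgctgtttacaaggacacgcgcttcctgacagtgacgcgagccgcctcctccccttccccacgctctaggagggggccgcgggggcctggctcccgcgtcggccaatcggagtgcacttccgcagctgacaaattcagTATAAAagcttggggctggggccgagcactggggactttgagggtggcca
Fos promoter, chr12:85473640-85473939, plus strand: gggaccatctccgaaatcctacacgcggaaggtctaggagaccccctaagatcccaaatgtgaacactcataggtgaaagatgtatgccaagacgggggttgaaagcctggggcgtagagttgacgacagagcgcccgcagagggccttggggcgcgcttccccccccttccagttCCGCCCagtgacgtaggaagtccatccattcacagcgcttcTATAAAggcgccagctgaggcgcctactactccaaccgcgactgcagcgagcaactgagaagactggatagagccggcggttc
Dusp1 promoter, chr17:26508423-26508722, minus strand: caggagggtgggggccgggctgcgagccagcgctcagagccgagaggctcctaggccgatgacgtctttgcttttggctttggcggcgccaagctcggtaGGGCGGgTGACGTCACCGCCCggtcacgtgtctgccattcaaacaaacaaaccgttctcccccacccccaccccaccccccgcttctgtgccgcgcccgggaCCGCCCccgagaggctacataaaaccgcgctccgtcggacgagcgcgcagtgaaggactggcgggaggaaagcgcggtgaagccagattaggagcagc

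Of the 10 members 8 had a promoter in the table, all but Ier2 and Egr1. The Zfp36 promoter held an EGR match at -105 and, 58 bases before the start, a CArG box whose first base is the last base of a GC box, whereas the CArG box was found in 1 of 8 member promoters and in 1.63% of the 32851 promoters in the table. The Dusp1 promoter held a full CRE at -143 between 2 GC boxes, also found in 1 of 8 member promoters and in 1.79% of all. A GC box was found in 7 of 8, all but Junb, against 35.7% of all promoters, and an EGR match in 3 of 8, Fosb, Nr4a1 and Zfp36, against 5.55%. The 32851 promoters were not limited to those of tested genes. The TATA box letters were found in Fos at -33 and in Junb at 1, the RefSeq start itself, against 13.6% of all promoters. The GENCODE gene of Junb begins further downstream, at 84978718 on the minus strand, so these Junb letters lie before that start. The AP-1 letters were found in 0 of 8, against 7.81%. Near matches were not searched, nor were letters more than 250 bases before or 50 bases after the start. A match describes letters and not binding. None of these 6 motifs was found in all 3 lower genes, since Junb held the TATA box letters alone, while Ier3 and Zfp36 both held a GC box.

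Most members were genes of few exons with AU-rich letters in their 3′ ends. In 1 representative transcript per gene of the GENCODE M21 annotation the median number of exons was 2 for the members and 9 for 11805 tested protein-coding genes, and 3 members, Jun, Junb and Ier2, had 1 exon. The heptamer TATTTAT, a core that tristetraprolin binds, was found in the 3′ untranslated region of 6 of 10 members, against 28% of the protein-coding genes tested, although the median length of that region was 764 bases in the members and 1010 in all. Ier3 had 4 copies and Zfp36 and Dusp1 had 3 each, while 3.57% of the protein-coding genes had 3 or more, Fos had 2, and Fosb and Jun had 1 each. Junb, Nr4a1, Egr1 and Ier2 had 0. Zfp36 and Ier3, the genes with the lowest p, carried several copies, as did Dusp1 at -0.05, while Junb at -0.34 had 0. A relation between copies and change was not tested. The sites of Ier3, Zfp36 and Dusp1 are shown with 8 bases on either side, the heptamer in capitals. They are on GRCm38 and read 5′ to 3′ on the gene's strand. The first 2 windows of Ier3 overlap each other, as do the first 2 of Zfp36.
Ier3, chr17:35822484-35822506, plus strand: ctaattaaTATTTATgtatttat
Ier3, chr17:35822492-35822514, plus strand: tatttatgTATTTATgtatatcc
Ier3, chr17:35822534-35822556, plus strand: gtatgtaaTATTTATtctaactt
Ier3, chr17:35822589-35822611, plus strand: aacacagaTATTTATtacgattt
Zfp36, chr7:28376969-28376991, minus strand: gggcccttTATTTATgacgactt
Zfp36, chr7:28376954-28376976, minus strand: gacgacttTATTTATtgtattaa
Zfp36, chr7:28376929-28376951, minus strand: ttttatagTATTTATatatattg
Dusp1, chr17:26506162-26506184, minus strand: ctggtcctTATTTATttaacacc
Dusp1, chr17:26505873-26505895, minus strand: tttaccttTATTTATttttgtgt
Dusp1, chr17:26505677-26505699, minus strand: tgtttgttTATTTATgatctgaa

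Outside the 10 members, a list of 42 other immediate early genes was examined, of which 38 were tested. It was chosen, like all lists here, with earlier results of these data known. Of the 38 genes, 29 were lower in PAHSA and 9 higher, with a median change of -0.33, and 11 were lower at an unadjusted p under 0.05 (28.9%, against 4.29% of all tested genes) and 1 higher, with 0 past the adjusted p in limma. The 11 were Ccn1, Klf10, Sik1, Socs3, Mcl1, Trib1, Ier5, Crem, Nr4a2, Gadd45g and Csrnp1, and the higher one was the kinase gene Plk3 at 0.33 (SE 0.13). The count of 11 rested in part on single libraries, and was 3 without vehicle replicate 3 and 6 without either vehicle replicate 1 or PAHSA replicate 1, while 26 to 29 genes were lower in direction in the 8 fits that left out one library.

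Ccn1, a matricellular protein gene, had levels of 2.10, 3.13, 2.70 and 2.03 in PAHSA libraries 1, 2, 3 and 4, against 3.44, 3.78, 4.26 and 3.42 log2 CPM in vehicle libraries 1, 3, 4 and 5. All PAHSA libraries lay below all vehicle libraries, with a difference of -1.23 (SE 0.36, unadjusted p = 0.00572, adjusted p = 0.671 in limma). Klf10, a TGF-beta inducible repressor, differed by -0.56 (SE 0.19), and Sik1, a kinase induced by cAMP, by -1.04 (SE 0.35), both with overlapping groups, Klf10 through PAHSA replicate 3 and Sik1 through PAHSA replicate 4. Sik1 was at 3.02, 3.92, 3.28 and 4.81 in PAHSA replicates 1, 2, 3 and 4, against 4.61, 4.85, 4.73 and 5.02 in vehicle replicates 1, 3, 4 and 5. Of the remaining 8 lower genes, named after their values were seen, Socs3, a feedback inhibitor of cytokine signalling, was lower in every PAHSA library, at 6.50, 7.15, 6.98 and 7.04 against 7.35, 7.69, 7.18 and 7.27 in vehicle replicates 1, 3, 4 and 5, a difference of -0.45 (SE 0.16). Ier5, an Ier2 relative, did the same with a difference of -0.55 (SE 0.22).

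Nr4a2, a relative of Nr4a1, had levels of 2.43, 1.98, 1.96 and 3.77 in PAHSA libraries 1, 2, 3 and 4, against 3.13, 3.75, 3.54 and 3.76 log2 CPM in vehicle libraries 1, 3, 4 and 5, a difference of -1.01 (SE 0.43, unadjusted p = 0.0398 in limma). As for Nr4a1, PAHSA replicates 1, 2 and 3 lay below all vehicle libraries, but PAHSA replicate 4 was the highest of all 8 for Nr4a2, just above vehicle replicate 5, and within the vehicle range for Nr4a1. Not all early genes were lower. Myc differed by 0.54 (SE 0.31; 0.27 without vehicle replicate 4) and Atf3, a stress-induced partner of Jun, by 0.34 (SE 0.31; 0.10 without vehicle replicate 1). Egr2 did not reach the filter.

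**Figure D4:**
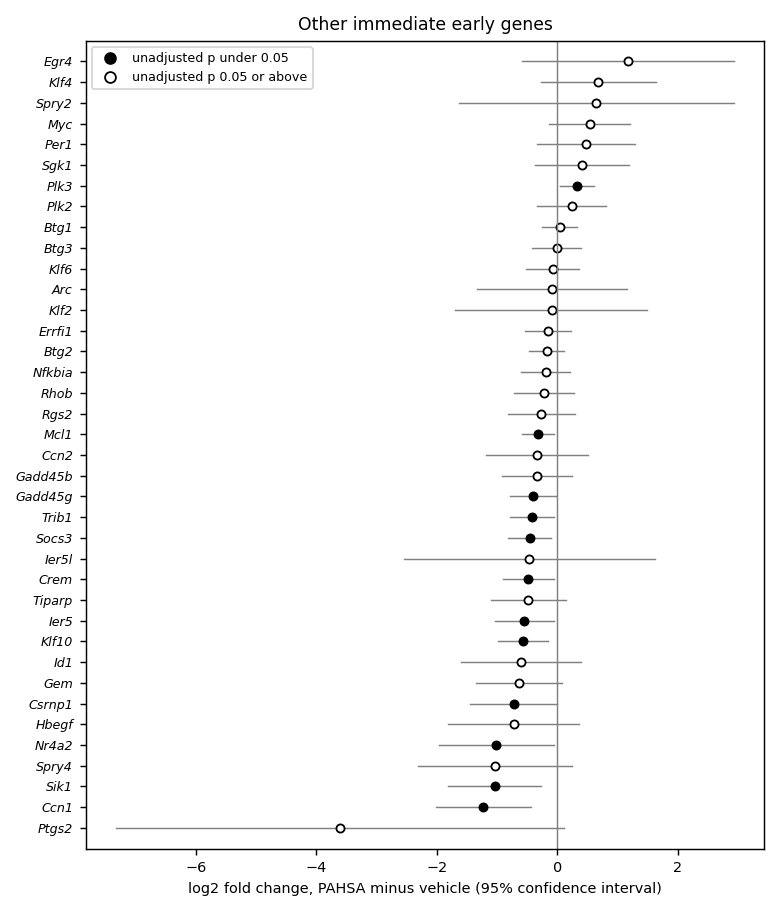
Log2 fold change of PAHSA minus vehicle (horizontal axis) with 95% confidence interval for 38 other immediate early genes in rows, filled where the unadjusted p was under 0.05. Of the 38 points 29 lie below 0. Ptgs2, at -3.61 with an SE of 1.68, owes its width to PAHSA replicate 3, which was at the lowest value of its library, -6.31 log2 CPM. The other PAHSA libraries also lay below every vehicle library for Ptgs2, so its groups were apart.

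Other AP-1 subunits and partners were balanced, with 5 lower and 5 higher of 10 tested and none at an unadjusted p under 0.05 in either direction. Those with the smallest p were Atf7 at 0.47 (SE 0.26; 0.24 without vehicle replicate 3), Fosl2 at -0.59 (SE 0.35; -0.34 without PAHSA replicate 1) and Jund at 0.23 (SE 0.15; 0.14 without PAHSA replicate 1). The DUSP phosphatases other than Dusp1 had 6 lower and 3 higher of 9 tested, again none at an unadjusted p under 0.05. They were led by Dusp10 at -0.36 (SE 0.21; -0.19 without PAHSA replicate 3), Dusp6 at -2.71 (SE 1.72; -0.53 without PAHSA replicate 1, which was at the lowest value of its library) and Dusp7 at 0.37 (SE 0.27; 0.18 without vehicle replicate 3).

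Among 7 binders of AU-rich elements other than Zfp36, 5 were lower and 2 higher, with a median change of -0.02. Of the lower ones 2 had an unadjusted p below 0.05 (28.6%, against 4.29% of all tested genes). Elavl1, which encodes the stabilising protein HuR, had levels of 6.13, 6.10, 6.29 and 6.30 in PAHSA libraries 1, 2, 3 and 4, against 6.45, 6.61, 6.53 and 6.58 log2 CPM in vehicle libraries 1, 3, 4 and 5. The groups were apart, with a difference of -0.34 (SE 0.11, unadjusted p = 0.0107 in limma). Zfp36l1, a relative of Zfp36 that was weakly expressed here, differed by -2.04 (SE 0.85; -1.46 without PAHSA replicate 1), and Tial1 by -0.30 (SE 0.22; -0.16 without PAHSA replicate 3). Of 10 tested transcripts known as targets of tristetraprolin, which include Ier3 itself, 8 were lower and 2 higher, 4 with an unadjusted p below 0.05 and lower (against 4.29% of all tested genes), with a median of -1.03. Plaur, the urokinase receptor, differed by -1.33 (SE 0.40) and the chemokine gene Ccl2 by -1.73 (SE 0.60), and the fourth, named after its value was seen, was the cytokine gene Lif at -2.41 (SE 1.08).

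The kinases upstream of the early response were balanced in direction at the RNA level. Of 31 tested genes of the ERK, JNK and p38 pathways 14 were lower and 17 higher, with a median of 0.03 and none at an unadjusted p under 0.05. Mapk3, which encodes ERK1, differed by 0.04 (SE 0.12; -0.04 without PAHSA replicate 1). The smallest p values belonged to Egfr at 0.43 (SE 0.20), the neural JNK gene Mapk10 at 0.39 (SE 0.19; 0.59 without PAHSA replicate 1) and Mapk13 at -1.08 (SE 0.57). Of 14 tested SRF, TCF and CREB factors 9 were lower and 5 higher, none at an unadjusted p under 0.05, with Elk3 at -0.45 (SE 0.24), the acetyltransferase gene Ep300 at -0.29 (SE 0.17; -0.17 without PAHSA replicate 2) and Srf at 0.39 (SE 0.22; 0.25 without vehicle replicate 3). RNA levels do not show kinase activity, which was not measured.

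Heat shock and handling stress genes include chaperones, and isolation of tissue can raise them. Of 14 tested genes 12 were higher and 2 lower in PAHSA, with a median of 0.15 and none at an unadjusted p under 0.05. Bag3, a cochaperone, differed by -0.35 (SE 0.17), Hmox1, the heme oxygenase, by 0.30 (SE 0.17; 0.18 without PAHSA replicate 4), and the chaperone gene Hsp90ab1 by 0.19 (SE 0.10; 0.10 without PAHSA replicate 1). The summed level of the 14 genes was 3129 to 4045 CPM in PAHSA and 2854 to 3379 CPM in vehicle, with overlapping ranges, and the part of handling in the early gene levels was not tested.

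Most tested markers of several other cell types were lower in PAHSA beside the 3 lower members. All 20 tested acinar markers were lower, 14 with an unadjusted p below 0.05, against 4.29% of all tested genes lower with such a p, and so were 7 of 9 duct markers, 4 with such a p. The 9 duct markers summed to 3472 to 4435 CPM in PAHSA and 4244 to 6178 CPM in vehicle. Stellate cell, fibroblast and pericyte markers were lower in 9 of 10 tested, 1 at that level, and 11 of them summed to 42.0 to 149 CPM in PAHSA and 85.3 to 320 CPM in vehicle, with vehicle replicates 1 and 3, the libraries with the highest early gene means, at 320 and 273 CPM. Of the 11 macrophage and dendritic cell markers 3 were in the table, without the defining Ptprc and Csf1r, which were not analysed here, and they summed to 54.1 to 88.0 CPM in PAHSA and 74.3 to 108 CPM in vehicle, Cd14 being at -1.23 (SE 0.41), Cd68 at -0.11 (SE 0.19) and C1qa at 0.27 (SE 0.31). Of 10 endothelial markers 4 were in the table, and the 3 tested were all lower, none at that level, with sums of 32.8 to 46.7 CPM in PAHSA and 35.9 to 72.5 CPM in vehicle. Of 12 T, NK and B cell markers, 2 were in the table, 0 passed the filter, and the 2 summed to no more than 2.44 CPM in PAHSA and 1.49 CPM in vehicle.

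Beta cell markers went the other way, with 8 of 10 higher, 3 at an unadjusted p under 0.05, against 3.02% of all tested genes, and sums of 141476 to 175773 CPM in PAHSA and 137132 to 180008 CPM in vehicle. Alpha cell markers were higher in 6 of 7, with sums of 66899 to 81011 CPM in PAHSA and 61018 to 69783 CPM in vehicle, and delta and PP cell markers lower in 4 of 5, with a p below 0.05 in 0 of either. The part of these cell types in the lower levels of Zfp36, Ier3, Junb and the other early genes was not tested. The acinar sums were 4385, 17953, 11087 and 516 CPM in PAHSA libraries 1, 2, 3 and 4, against 11963, 12094, 48316 and 30040 CPM in vehicle libraries 1, 3, 4 and 5.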

How the data were processed

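Islet RNA was sequenced from 4 PAHSA and 4 vehicle libraries, prepared, per the labels, with NexteraXT, which does not mark strand. The authors deposited log2 CPM values, scaled to an effective library size, and kallisto and limma are named in the submitters' processing notes without versions. The genome build is not given in the sources used here, and coordinates are those of GENCODE M21 (GRCm38), matched by Ensembl identifier, for which 56 of 13725 identifiers had no symbol. The lowest value of each column, read as 0 counts plus 0.5, gave the estimated counts, from 34461742 to 45236238 a library, and 47.8% to 51.5% of them lay within 0.01 of a whole number, so no count model was used.

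Genes with a mean log2 CPM above 0 were tested, 12231 in all, with limma 3.58.1 in R 4.3.3 (lmFit, eBayes with trend), two-sided, on group alone, with Benjamini-Hochberg adjustment over all tested genes at 0.05. The procedure was run on simulated data with independent normal noise for each gene. Such data lack the variation that genes share between libraries, so the run does not test the procedure under it. Correlations were tested over all 40320 pairings. The members and lists were chosen with earlier results of these data known. Named genes are the members, from each pathway list the 3 with the smallest p and a few standard genes (Atf3, Jund, Egr2, Nr4a2, Myc, Srf, Mapk3 and 1 more not reported here), and the 4 most like the members' mean. Alternatives were 17 other settings of filter, scaling, pseudocount, variance model, weights, pairing and libraries. Genes that overlap others on the opposite strand cannot be told apart from them.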

Additional observations from a re-analysis of the deposited data

Results flagged for a closer look

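In groups of 4 libraries, 4 of 82 gene and group combinations had a library whose gap to the nearest other was past Dixon's critical share of the range of its group. The critical share is set for about 1 in 20. Many of these genes were picked by their p or their likeness to the members, so the rate cannot be compared with chance. Nr4a1 in PAHSA replicate 4 was at 4.74 log2 CPM, with the other PAHSA libraries at 3.94 to 4.00. Atf7 in vehicle replicate 3 was at 3.67 log2 CPM, with the other vehicle libraries at 4.55 to 4.66. Dusp6 in PAHSA replicate 1 was at -6.19 log2 CPM, the lowest value of that library, with the other PAHSA libraries at 2.09 to 3.24. Ccl2 in vehicle replicate 5 was at 1.47 log2 CPM, with the other vehicle libraries at 3.22 to 3.56.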

How the results depend on the processing

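In limma 0 of the tested genes passed an adjusted p of 0.05 in the 17 alternatives, the smallest adjusted p being 0.227 without PAHSA replicate 4, and 669 to 1021 genes had an unadjusted p under 0.05. Zfp36 and Ier3 kept an unadjusted p under 0.05 in all 17, and Junb lost it under quantile normalization (0.0605), in eBayes without trend (0.0905) and without PAHSA replicate 1 (0.0921), vehicle replicate 1 (0.0871) or vehicle replicate 3 (0.0952). With one library left out, 6 to 9 members were lower, 2 to 4 with an unadjusted p below 0.05, and the other immediate early genes at that level numbered 3 to 10. Among 169 values of members in alternatives 9 had the opposite sign. Under quantile normalization Fos was at 0.05. With one library left out Fos ran from -0.14 to 0.20, Jun from -0.01 to 0.23, Egr1 from -0.14 to 0.03 and Dusp1 from -0.14 to 0.10, and Mapk3 from -0.04 to 0.10. The cause of these sign changes was not tested. The replicate numbers 1, 3 and 4 occur in both groups, and the labels do not say whether they mark a shared litter or day. Deviations from the group means of same-numbered libraries correlated at -0.02, -0.02 and -0.02. A correlation over all genes cannot exclude a shared litter or day that moves few genes. With the replicate block 0 genes passed, 747 had an unadjusted p under 0.05 against 822 without the block on the same 6 libraries, and 8 members were lower, 3 of them at that level. With 4 libraries a group the median SE was 0.25 on the log2 scale over all genes, so changes of that size were not detectable. Larger changes did not pass either, such as Ier3 at -0.88 with an adjusted p of 0.671 in limma.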
